A study of Mus musculus with 12 samples.

Results

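Interferon-induced genes and MHC class I genes were followed in retinal pigment epithelium (RPE), the pigmented cell layer behind the retina, as 9 named genes of the 13942 in the deposited expression table. They were chosen by symbol: B2m, H2-K1 and H2-D1 for class I, the transcription factor Irf7, and the antiviral effectors Ifitm3, Bst2, Ifit3, Isg15 and Ifit1, all of which the table holds. Polyadenylated RNA was sequenced from C57BL/6J mice in 4 groups of 3 libraries: wild-type (WT) before birth at the embryonic stage E15.5, Sox9 cKO at E15.5, WT at postnatal day 5 (P5) and Sox9 cKO at P5. The genotype label reads Sox9.cKO, a conditional knockout, while the titles of the same libraries carry "kd". The Cre line, the cells it acts in, the deleted exons of Sox9 and the way RPE was separated from its neighbours were not found in the labels. Whether the libraries of a group stand for different mice is not stated in the labels, and every p-value therefore reflects library-to-library spread, which may be technical. The design asks how the transcriptome differs between the genotypes at each age.

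Cells that sense viral nucleic acid secrete interferons, which signal through receptors and JAK kinases to STAT and IRF transcription factors. These bind the interferon-stimulated response element (ISRE) in the promoters of antiviral genes. MHC class I molecules, a heavy chain paired with beta-2-microglobulin, display peptides from inside the cell to CD8 T cells, and interferon raises their expression in many cell types. The eye is an immune-privileged organ in which class I is held low, and the RPE forms part of its outer blood barrier.

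Stretches of 6 of the promoters are shown because they hold the letters of elements through which interferon and NF-kappa B are known to act. The sequences are from RefSeq (GRCm38.p6), each 150 bases long, from 180 to 31 bases before the annotated start, read 5′ to 3′ on the strand of the gene. RefSeq promoters were matched for all 9 genes, 10 in number because H2-K1 has a pair of starts, of which the first listed is shown. Capitals mark the ISRE core, GAAA then any 2 bases then GAAA, on either strand, and in H2-K1 a kappa B-like pattern, GGGA then any base, T, any base and CCC.
B2m, chr2:122147507-122147656, plus strand: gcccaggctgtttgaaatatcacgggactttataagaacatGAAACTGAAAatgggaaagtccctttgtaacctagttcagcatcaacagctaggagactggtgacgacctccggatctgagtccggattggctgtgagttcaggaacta
H2-K1, chr17:34000378-34000527, minus strand: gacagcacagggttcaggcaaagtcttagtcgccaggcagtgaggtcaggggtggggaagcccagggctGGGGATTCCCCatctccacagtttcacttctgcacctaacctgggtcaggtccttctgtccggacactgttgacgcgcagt
Isg15, chr4:156200849-156200998, minus strand: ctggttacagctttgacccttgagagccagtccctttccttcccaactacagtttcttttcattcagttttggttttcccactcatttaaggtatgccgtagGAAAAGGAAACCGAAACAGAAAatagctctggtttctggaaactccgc
Ifit1, chr19:34640709-34640858, plus strand: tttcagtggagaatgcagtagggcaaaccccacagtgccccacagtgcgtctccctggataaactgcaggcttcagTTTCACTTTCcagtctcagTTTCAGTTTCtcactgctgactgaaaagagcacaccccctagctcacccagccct
Ifit3, chr19:34583349-34583498, plus strand: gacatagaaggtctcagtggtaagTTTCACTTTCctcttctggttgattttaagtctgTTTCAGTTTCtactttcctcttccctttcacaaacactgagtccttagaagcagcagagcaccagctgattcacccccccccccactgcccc
Bst2, chr8:71537503-71537652, minus strand: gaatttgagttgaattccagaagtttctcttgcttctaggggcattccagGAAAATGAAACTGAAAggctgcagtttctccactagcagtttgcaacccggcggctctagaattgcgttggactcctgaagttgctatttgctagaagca

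Searched on both strands over the 250 bases before the start, the ISRE core was found in 5 of the 10 promoters (B2m, Bst2, Ifit1, Ifit3 and Isg15), against 2.98% of 32851 mouse promoters. Only these exact letters were searched. Variants of the element in the other promoters, those of H2-K1 and H2-D1 among them, were not. In Isg15 it occurs as 3 matches that overlap in a row and end 68, 62 and 56 bases before the start, and in Bst2 as 2 overlapping matches. The kappa B-like pattern was found in both H2-K1 promoters and in H2-D1, against 0.944% of all promoters, each time as 2 overlapping matches. A pattern of STAT dimers, TTCNNNGAA, was found in Bst2 alone, against 7.02%. These are matches of letters in a window and were not measured as sites of binding.

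The values are gene counts that the authors brought to 1 distribution across libraries, with values under 50 set to 50; the floor of 50 is therefore an upper limit, and the sequencing depth behind a value is unknown. The median value was 367.4 in each library. Replicates of P5 were more spread than those of E15.5, with a median SD between libraries, on the log2 scale, of 0.317 in WT and 0.232 in cKO against 0.105 and 0.116. The gene targeted in the study did not read lower in the libraries labelled cKO: Sox9 stood at 1049 ± 113 in WT and 1010 ± 22.3 in cKO at E15.5, and at 1192 ± 277 and 2482 ± 405 at P5 (SD, n = 3). At P5 this went the other way from the label. The deleted exons are not known, so a whole-gene value cannot test the knockout. Below, cKO means the libraries labelled cKO. Of 15 RPE markers, 1 was lower in them at E15.5 and 2 at P5 (adjusted p under 0.05 by limma), and none higher. For all genes the shares were 0.00739% and 0.244% in either direction. Rgr, an RPE marker, read 10696 ± 3907 in WT and 165 ± 62.5 in cKO at P5 (SD, n = 3).

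Between E15.5 and P5, 7 of the 9 genes rose in WT and the same 7 rose in cKO: H2-K1, H2-D1, B2m, Ifitm3, Bst2, Irf7 and Ifit3. Among genes above the floor at both ages, the rise was steepest in the class I heavy chains H2-K1 and H2-D1. Isg15 and Ifit1 stayed at or near the floor at both ages and were not called. Irf7, Isg15 and Ifit1 entered the test only through P5 libraries, so only an upward difference could be seen in them; the other 6 genes were above the floor in all libraries. Across all 13523 genes tested, 15% were called higher with age in WT and 17.6% in cKO at an adjusted p under 0.05 by limma with Benjamini-Hochberg adjustment, and all adjusted p-values below are of this kind. The median log2 fold change of the 9 genes was 1.56 in WT and 1.85 in cKO, against -0.07 and -0.08 for all genes tested. The comparisons between ages in the 2 genotypes share no library.

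B2m encodes beta-2-microglobulin, the light chain needed by every class I molecule at the cell surface (chr2:122147686-122153083, plus strand, GRCm38). It read 2358.8, 2313.4 and 2125.8 in the WT libraries at E15.5 and 7535.9, 9128.0 and 4323.7 at P5. In cKO the values were 2461.8, 1938.8 and 1979.5 at E15.5 and 6744.4, 7492.3 and 8804.4 at P5. All 6 P5 libraries lay above all 6 E15.5 libraries, and P5 WT replicate 3 was the lowest of the P5 libraries. B2m rose by 1.56 ± 0.23 (log2, SE, adjusted p = 0.000572 by limma) in WT and by 1.85 ± 0.23 (log2, SE, adjusted p = 0.000175 by limma) in cKO.

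H2-K1, a classical class I heavy chain that presents peptide to CD8 T cells, lies in the MHC at chr17:33996017-34000347 on the minus strand. In WT it read 130.1, 131.4 and 100 at E15.5 and 1232.8, 1050.3 and 521.4 at P5. The cKO libraries read 139.4, 106.7 and 131.8 at E15.5 and 996.0, 1065.8 and 1431.9 at P5. Ages did not overlap in either genotype. H2-K1 had the largest age difference of the 6 genes above the floor at both ages, at 2.86 ± 0.29 (log2, SE, adjusted p = 5.89e-05 by limma) in WT and 3.19 ± 0.29 (log2, SE, adjusted p = 2.77e-05 by limma) in cKO.

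H2-D1, the other classical heavy chain measured, lies at chr17:35262730-35267499 on the plus strand. Its WT values were 302.5, 296.7 and 285.6 at E15.5 and 2508.3, 2392.8 and 1420.9 at P5, and its cKO values 281.2, 273.3 and 277.8 at E15.5 and 2165.7, 1611.6 and 2299.3 at P5. The replicates at E15.5 were close together and far below every P5 library. The log2 fold change with age was 2.79 ± 0.20 (SE, adjusted p = 8.7e-06 by limma) in WT and 2.85 ± 0.20 (SE, adjusted p = 6.74e-06 by limma) in cKO. Heavy chain genes are near-identical in parts: 9.63% of the 50-base windows of H2-K1 and 12.8% of those of H2-D1 also occur in transcripts of other genes, mainly other class I genes, so reads could be split between them.

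Ifitm3 encodes a membrane protein that blocks the entry of enveloped viruses through endosomes (chr7:141009586-141010770, minus strand). It read 380.6, 416.1 and 355.3 in WT and 413.8, 418.4 and 334.9 in cKO at E15.5. At P5 it read 1839.9, 1964.0 and 927.3 in WT and 1597.0, 1612.9 and 1474.8 in cKO. No E15.5 library reached the P5 range, and the 3 cKO libraries at P5 were close together while WT replicate 3 stood apart below. Age changed Ifitm3 by 1.96 ± 0.24 (log2, SE, adjusted p = 0.00017 by limma) in WT and by 2.01 ± 0.24 (log2, SE, adjusted p = 0.000122 by limma) in cKO.

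Bst2 encodes tetherin, which holds budding virus particles at the cell surface (chr8:71534255-71537456, minus strand). WT libraries read 78.5, 90.6 and 85.3 at E15.5 and 516.0, 467.1 and 177.3 at P5. In cKO Bst2 read 92.4, 68.8 and 87.2 at E15.5 and 347.3, 275.3 and 367.3 at P5. P5 was above E15.5 without overlap, although WT replicate 3 was far below the other P5 libraries. Its log2 fold change was 2.03 ± 0.34 (SE, adjusted p = 0.00107 by limma) in WT and 1.98 ± 0.34 (SE, adjusted p = 0.00105 by limma) in cKO.

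Irf7 is the transcription factor that amplifies type I interferon production and is itself induced by interferon (chr7:141262706-141266481, minus strand). It was at the floor in 5 of 6 E15.5 libraries, with 51.0 in cKO replicate 3, and at P5 read 186.1, 164.9 and 63.0 in WT and 102.0, 121.3 and 109.9 in cKO. Every P5 library was above the E15.5 libraries. Because the E15.5 WT libraries were all at the floor, the ratio of the WT means is a lower bound: Irf7 was at least 2.76-fold higher at P5 (adjusted p = 0.009 by limma). In cKO the log2 fold change was 1.12 ± 0.32 (SE, adjusted p = 0.0162 by limma). The annotation places 45 exonic bases of Irf7 on the opposite strand of an exon of Phrf1, and the strand setting of the counting is not known.

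Ifit3, an antiviral gene of the same family as Ifit1, is at chr19:34583531-34588731 on the plus strand. At E15.5 it read 98.8, 113.4 and 96.4 in WT and 115.7, 86.8 and 121.0 in cKO. At P5 it read 319.9, 337.6 and 109.5 in WT and 225.7, 312.7 and 318.2 in cKO. In WT the ages overlapped, since P5 replicate 3 fell within the E15.5 range, and in cKO they did not. Ifit3 rose by 1.14 ± 0.37 (log2, SE, adjusted p = 0.0314 by limma) in WT and by 1.39 ± 0.37 (log2, SE, adjusted p = 0.0113 by limma) in cKO. Of its 50-base windows, 51.2% are shared with its copy Ifit3b, which makes the split of reads between them uncertain.

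Isg15, a ubiquitin-like protein that is joined to other proteins during the interferon response (chr4:156199424-156200818, minus strand), read 50, the floor, in each of the 6 E15.5 libraries. At P5 it read 71.3, 68.4 and 50 in WT and 57.0, 55.2 and 54.8 in cKO. Ifit1, which binds viral RNA lacking a host cap (chr19:34640871-34650009, plus strand), was likewise at the floor at E15.5 and read 71.3, 72.3 and 50 in WT and 50, 66.8 and 50 in cKO at P5. Isg15 had log2 fold changes with age of 0.32 ± 0.14 (SE, adjusted p = 0.0925 by limma) in WT and 0.15 ± 0.14 (SE, adjusted p = 0.318 by limma) in cKO, and Ifit1 of 0.34 ± 0.17 (SE, adjusted p = 0.126 by limma) and 0.14 ± 0.17 (SE, adjusted p = 0.543 by limma). The cKO libraries at P5 were above the floor in 3 of 3 for Isg15 and in 1 of 3 for Ifit1.

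**Figure D1:**
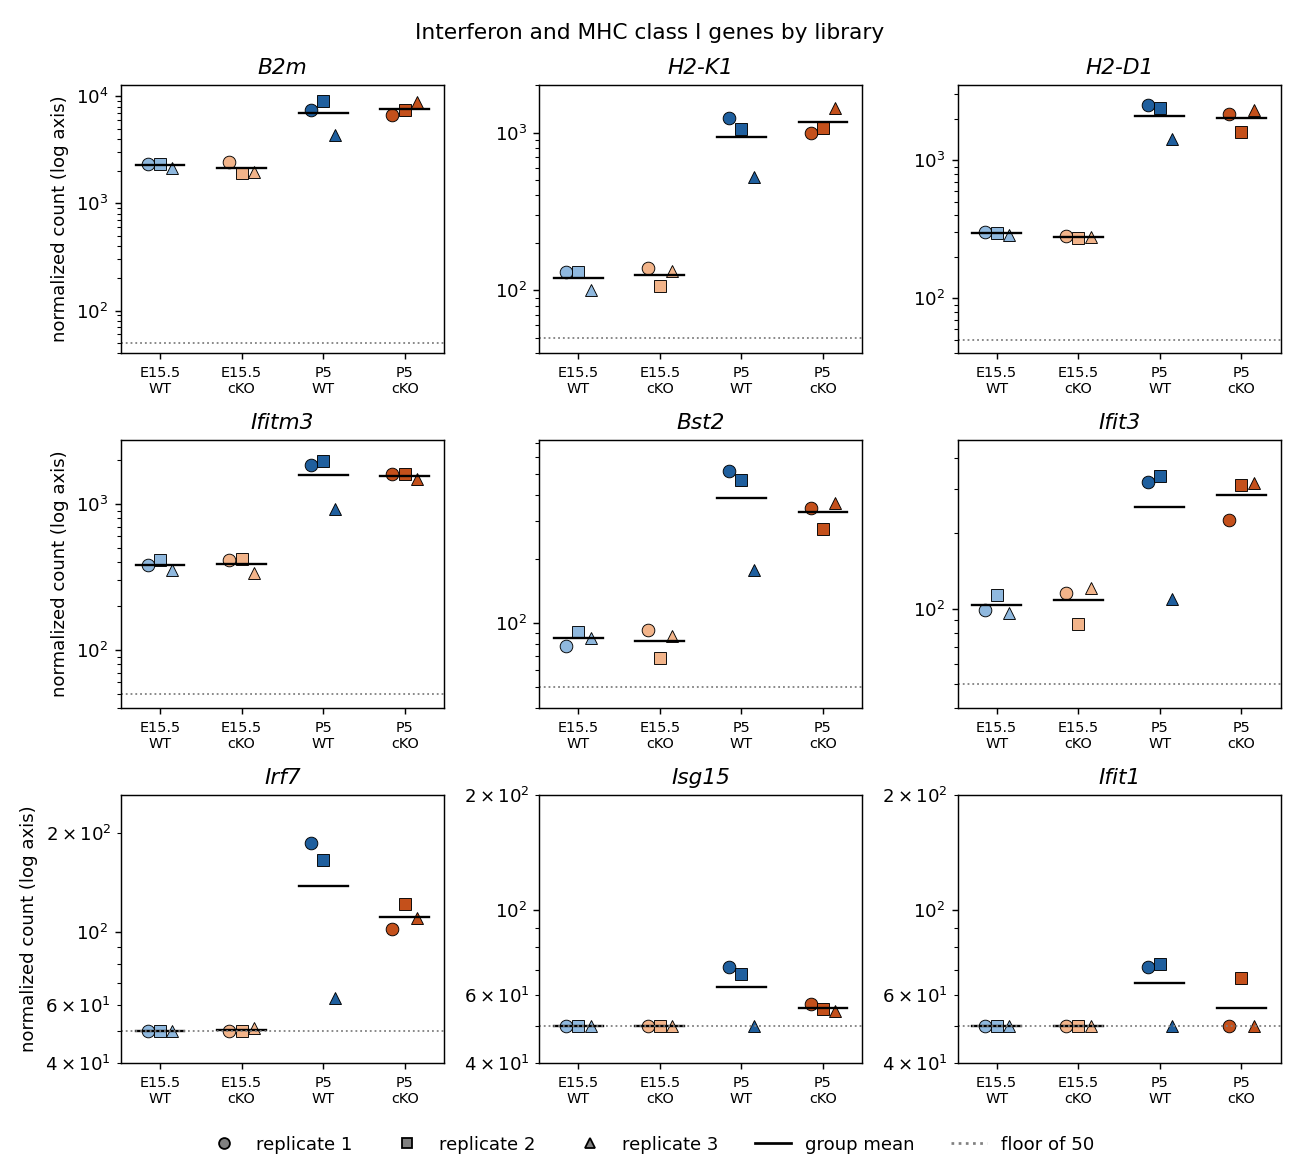
Value of each of the 9 genes in each of the 12 libraries on a log axis, with E15.5 and P5 side by side and WT and cKO apart; points are libraries. B2m, H2-K1, H2-D1, Ifitm3, Bst2 and Irf7 are higher in every P5 library than in any E15.5 library, and P5 WT replicate 3 is the lowest P5 library for 8 of the 9 genes.

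Libraries of the ages did not overlap in 6 of the 9 genes in WT and in 8 of the 9 in cKO, P5 being higher, which held for 19.3% and 23.8% of all genes tested. With 3 libraries against 3, an exact permutation test cannot go below p = 0.1, the value for each of these genes. Leaving out P5 WT replicate 3, which lowered every WT mean at P5, brought the age calls in WT from 7 to 9, against 20.4% of all genes called higher. The added calls were Isg15 and Ifit1, whose direction the floor fixes. In a fit of the 6 WT libraries alone, with fewer degrees of freedom, 5 were called, against 10.4% of all genes, and Ifit3 (adjusted p = 0.107 by limma) and Irf7 (adjusted p = 0.0612 by limma) were not.

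Per kilobase of annotated exon, B2m had the highest level in every group, at 2635 ± 144 in WT at E15.5 and 8135 ± 2846 at P5 (SD, n = 3). Ifitm3 came next at 566 ± 45.0 and 2326 ± 835 (SD, n = 3), and H2-D1 after it at 114 ± 3.33 and 817 ± 232 (SD, n = 3). Bst2 at 428 ± 203 and H2-K1 at 318 ± 126 (SD, n = 3) did not differ beyond their spread at P5 in WT. At E15.5 in WT, Bst2 stood at 93.9 ± 6.72 and H2-K1 at 41.0 ± 6.05 per kilobase (SD, n = 3), with Ifit3 between them at 58.9 ± 5.27. Irf7, Isg15 and Ifit1 are at the floor there, so their levels per kilobase are upper limits and have no place in the order. At P5 in WT the lowest levels were those of Irf7 at 36.5 ± 17.4 and Ifit1 at 24.3 ± 4.74 per kilobase (SD, n = 3), which overlapped. In cKO at P5 the order of the 5 highest was B2m, Ifitm3, H2-D1, H2-K1 and Bst2, with H2-K1 at 396 ± 79.7 and Bst2 at 365 ± 53.6 per kilobase (SD, n = 3), again within their spread.

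Markers of several cell types moved with age as well. Of all 13523 genes tested, 15% were called higher in WT and 17.6% in cKO, and 3143 and 3526 genes were called lower. In bulk tissue, a change in the number of cells of a type and a change in RNA per cell cannot be told apart. Of 16 endothelial markers, 15 rose in WT and 12 in cKO, and their summed value went from 13004 to 14469 at E15.5 to 28489 to 57152 at P5 across the WT libraries. Of 15 RPE markers tested, 13 rose in WT and 12 in cKO. Of 14 photoreceptor markers, 10 rose in each genotype, and 6 of 7 markers of astrocytes and Müller glia rose in each. Of 19 macrophage and microglia markers tested, 2 rose in each genotype, with summed values of 5007 to 5809 at E15.5 and 3826 to 11114 at P5 in WT and of 4819 to 5707 and 4926 to 10404 in cKO. Lens markers rose in 1 of 12 genes in WT and 10 in cKO, and of 10 markers of pericytes, fibroblasts and mesenchyme 2 rose and 3 fell in WT and 1 rose and 3 fell in cKO. Lymphocyte and NK cell markers were represented by Cd4 alone, at 50 to 53 in all libraries.

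The age calls were recomputed with a term for the mean level of each marker list. A macrophage term left 7 genes called higher in WT and 7 in cKO, against 23.8% and 26.2% of all genes, and a photoreceptor term 8 and 8, against 22.7% and 24.6%. With an endothelial term 2 were called higher in WT and 4 in cKO, against 18.4% and 19.8% of all genes. With an RPE term 0 were called higher in either genotype, against 1.63% and 0.444% of all genes, while Ifit3 was called lower in WT (log2 fold change -2.17, adjusted p = 0.0422 by limma). The RPE term took most age calls of the whole table with it, from 5171 to 657 genes in WT; the cause was not tested. The endothelial and RPE terms were added after the data were seen. Age and the level of these markers cannot be told apart in these libraries.

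Genotype made no called difference in any of the 9 genes at either age. At E15.5, limma called 0 of 9, against 0.00739% of all genes called in either direction. An unadjusted p under 0.05 was reached by 0 of the 9, against 49 of all 13523 genes. The log2 fold changes, cKO minus WT, ran from -0.10 ± 0.23 (SE) for B2m to 0.07 ± 0.29 (SE) for H2-K1. H2-D1 was lower in every cKO library than in any WT library at E15.5 (means of 277 ± 3.96 against 295 ± 8.59, SD, n = 3, exact permutation p = 0.1). The size was -0.09 ± 0.20 (log2, SE), at an adjusted p of 1 by limma. Such separation downward held for 2.99% of all genes. Irf7 was at the floor in every WT library and in 2 of 3 cKO libraries there, while Isg15 and Ifit1 were at the floor in all 6, so no fold is given for them.

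At P5, limma called 0 of 9 between the genotypes, against 0.244% of all genes called. An unadjusted p under 0.05 was reached by 0 of the 9, against 7.68% of all genes. No gene of the set separated the libraries, which 6.18% of all genes did in either direction. Values ran from -0.21 ± 0.17 (log2, SE) for Ifit1 to 0.39 ± 0.29 (log2, SE) for H2-K1. The 95% intervals of the 9 genes lay between -0.88 and 1.12. B2m was at 6996 ± 2447 in WT and 7680 ± 1043 in cKO, H2-K1 at 935 ± 370 and 1165 ± 234, and Irf7 at 138 ± 65.8 and 111 ± 9.70 (SD, n = 3).

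**Figure D2:**
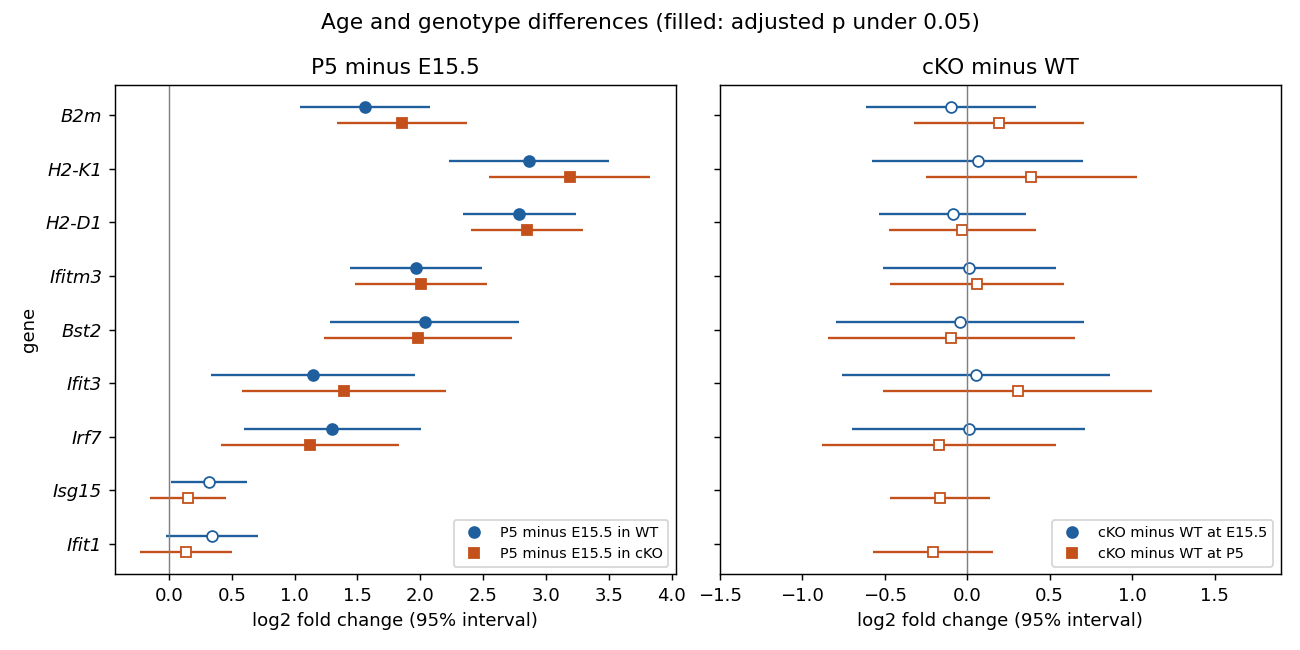
Log2 fold change of each gene with its 95% interval, between ages in each genotype on the left and between genotypes at each age on the right; filled symbols are called at an adjusted p under 0.05. Age differences of 7 genes lie above 0 in both genotypes and are filled, while all genotype intervals include 0 and all symbols there are open; Isg15 and Ifit1 have no E15.5 genotype value.

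The spread in WT at P5 came mainly from replicate 3. It was the lowest of the 6 P5 libraries for 8 of the 9 genes and shared the lowest place, the floor, for Ifit1, while it was lowest for 27.9% of all genes. Bst2 read 177.3 there against a mean of 491.55 in the other WT libraries, B2m 4323.7 against 8331.95, and H2-D1 1420.9 against 2450.55. In that library the mean log2 value of photoreceptor markers was 12.16, the highest of the P5 libraries, which otherwise ranged from 7.465 to 11.31. Its endothelial mean was 10.46 against 11.32 and 11.46 in the other WT libraries, its macrophage mean 7.087 against 8.008 and 8.413, and its RPE mean 11.4 against 12.48 and 12.61. The part of these cell type signals in the values of the 9 genes was not tested.

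Without P5 WT replicate 3, the direction of several genotype values turned. That library is singled out as the lowest of the P5 libraries for 8 of these 9 genes. Leaving it out therefore moves them towards lower in cKO. The shares of all genes given here are over genes not chosen in that way. The remaining WT libraries were both above all 3 cKO libraries in 7 of the 9 genes, the exceptions being B2m and H2-K1, against 8.87% of all genes. The median log2 fold change of the 9 was then -0.29, and 5 had an unadjusted p under 0.05, against 11.9% of all genes: Irf7, Bst2, Isg15, Ifit1 and Ifitm3. H2-K1 moved from 0.39 to 0.015 and Ifit1 from -0.21 to -0.38 (log2). None passed adjustment over all genes. Irf7 came nearest at -0.66 ± 0.12 (log2, SE, adjusted p = 0.0583 by limma, in a range of 0.0583 to 1 over its alternatives), and Bst2 stood at -0.58 ± 0.18 (log2, SE, adjusted p = 0.252 by limma). With the RPE term and all libraries, 3 genes were instead called higher in cKO at P5: Ifit3 at 1.11, H2-K1 at 1.02 and B2m at 0.70 (log2), against 5.1% of all genes. Of the 15 RPE markers, 2 were called lower in cKO at P5, against 0.244% of all genes called in either direction. The mean log2 value of the list at P5 was 12.48, 12.61 and 11.4 in WT, overlapping 11.24 to 11.79 in cKO only through replicate 3. At E15.5 it was 9.303 to 9.652 in WT and 8.691 to 9.054 in cKO, without overlap. The RPE term thus went partly with genotype, and its part in these 3 calls was not tested.

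**Figure D3:**
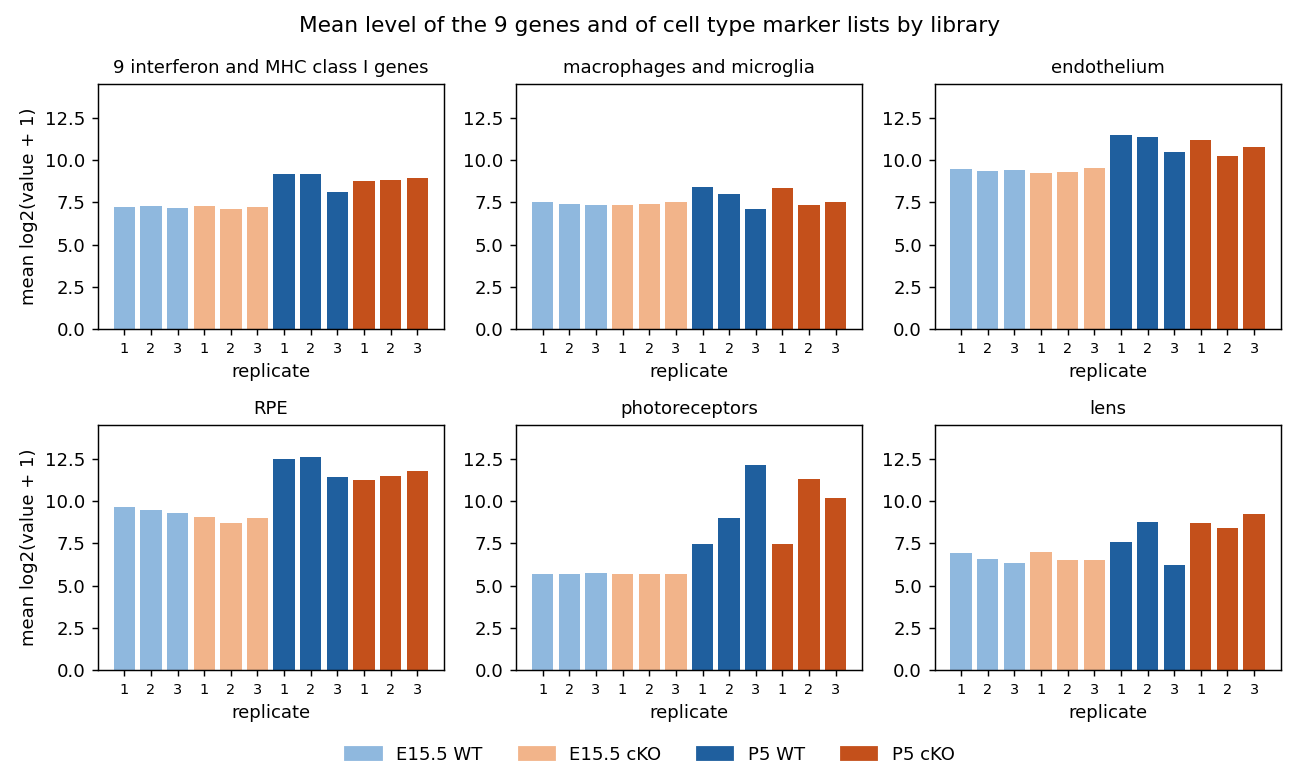
Mean log2 value of the 9 genes and of marker lists for macrophages, endothelium, RPE, photoreceptors and lens in each library, WT and cKO at both ages. P5 WT replicate 3 is the lowest P5 library for the 9 genes, at 8.117 against 8.766 to 9.17 in the others, and the highest for photoreceptors at 12.16.

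The difference of the age effect between the genotypes was tested as an interaction, and limma called 0 of 9 genes, against 0.0592% of all genes called. An unadjusted p under 0.05 was reached by 0 of the 9, against 358 of all 13523 genes. The values ran from -0.21 ± 0.23 (log2, SE) for Ifit1 to 0.32 ± 0.41 (log2, SE) for H2-K1.

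The rest of the interferon and antigen presentation pathways was described from lists of textbook members. Upstream, 7 of 16 interferon receptor and JAK-STAT genes rose with age in each genotype and none fell. Of all genes, 15% were called higher in WT and 17.6% in cKO. Irf1, a transcription factor induced by interferon-gamma, rose by 1.03 ± 0.26 in WT and 1.28 ± 0.26 in cKO (log2, SE), and Il10rb, a receptor chain shared by interleukin-10 and type III interferon, by 0.90 ± 0.28 and 1.18 ± 0.28. Of the largest others, the interferon-gamma receptor chain Ifngr1 rose by 0.93 ± 0.14 in WT and 0.86 ± 0.14 in cKO (log2, SE). Irf2 rose in WT by 0.72 ± 0.17 (log2, SE) and was also called higher in cKO (adjusted p = 0.00118 by limma).

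Of 15 nucleic acid sensing genes, 5 rose in WT and 4 in cKO, against 15% and 17.6% of all genes. The median log2 fold change of the list was 0.07 in each genotype, against -0.07 in WT and -0.08 in cKO for all genes. The double-stranded RNA receptor Tlr3 rose by 1.32 ± 0.41 in WT and 1.14 ± 0.41 in cKO, and the adaptor Myd88 by 1.02 ± 0.29 and 0.90 ± 0.29 (log2, SE). The cytosolic RNA sensors Ifih1 (MDA5) and Ddx58 (RIG-I) rose by 1.02 ± 0.37 and 0.80 ± 0.28 in WT and by 1.10 ± 0.37 and 0.86 ± 0.28 in cKO. Ifih1 and Irf5 read 50, the floor, in every E15.5 library, so only an upward difference could be seen in them. Irf5 was also among the genes called higher in WT, by 0.72 ± 0.19 (log2, SE), and was not called in cKO.

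Among 38 other interferon-induced genes tested, 21 rose in WT and 21 in cKO, against 15% and 17.6% of all genes, and none fell. Many of these, Oasl2, Rtp4, Gbp3, Gbp7 and Sp100 among them, read 50, the floor, in every E15.5 library. They were tested only through P5 libraries, so only an upward difference could be seen in them. The median log2 fold change of this list was 0.95 in WT and 0.94 in cKO. Lgals3bp, a secreted galectin-binding glycoprotein, rose by 3.16 ± 0.46 in WT and 3.28 ± 0.46 in cKO (log2, SE). Xaf1, which promotes apoptosis, read 50 in each E15.5 WT library and 580.3, 450.3 and 163.8 in WT at P5, and rose by 2.95 ± 0.37 (log2, SE) in cKO. The galectin Lgals9 rose by 2.35 ± 0.29 and 2.27 ± 0.29 (log2, SE). The GTPase Irgm1 rose by 1.96 ± 0.32 (log2, SE) in WT. In cKO Irgm1 read 61.5, 62.6 and 81.3 at E15.5 and 381.7, 251.3 and 255.9 at P5. The guanylate-binding protein Gbp7 rose by 1.82 ± 0.35 in WT and by 2.16 ± 0.35 in cKO (log2, SE).

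In class I loading and processing, 4 of 13 genes rose in WT, and 5 rose and 1 fell in cKO. The share of all genes called higher was 15% in WT and 17.6% in cKO. Tap2, a subunit of the peptide transporter into the endoplasmic reticulum, read 50 in each of the 6 E15.5 libraries and 235.9, 163.5 and 82.2 in WT and 206.8, 177.8 and 142.0 in cKO at P5. Tapbp (tapasin), which loads peptide onto class I, rose by 1.35 ± 0.22 and 1.54 ± 0.22 (log2, SE). The immunoproteasome subunit Psmb10 rose by 1.22 ± 0.21 and 1.36 ± 0.21 (log2, SE). Psmb8, another such subunit, was at the floor at E15.5 and at 123.3, 136.0 and 59.3 in WT and 125.5, 111.3 and 103.3 in cKO at P5. Tap2, Psmb8 and Psmb9 were at the floor in every E15.5 library and entered the test only through P5 libraries. Only an upward difference could be seen in them, and Tap2 and Psmb8 are among the genes counted as rising. The other transporter subunit Tap1 rose in cKO by 1.16 ± 0.38 (log2, SE), and the gene that fell there was the chaperone Canx (-0.35 ± 0.12, log2, SE), named after its value was seen. Of 8 other class I and class I-like genes, 5 rose in each genotype: Hfe, which regulates iron uptake, by 1.96 ± 0.36 and 2.16 ± 0.36, H2-Q4 by 1.43 ± 0.26 and 1.89 ± 0.26, Mr1, which presents microbial metabolites, by 1.60 ± 0.41 and 1.68 ± 0.41, and the IgG receptor Fcgrt by 1.34 ± 0.31 and 1.32 ± 0.31 (log2, SE) among them.

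MHC class II, which professional antigen-presenting cells display to CD4 T cells, had 3 of 6 genes rising in WT and 5 in cKO. This stands against 15% and 17.6% of all genes. The invariant chain Cd74 read 83.7, 140.8 and 109.7 at E15.5 and 324.4, 303.3 and 125.4 at P5 in WT, where the ages overlapped through replicate 3. Its log2 fold change was 1.08 ± 0.34 (SE) in WT and 1.79 ± 0.34 (SE) in cKO. H2-Ab1 and H2-Aa rose by 1.01 ± 0.27 and 0.68 ± 0.23 (log2, SE) in WT and by 1.22 ± 0.27 and 1.04 ± 0.23 in cKO, and H2-DMb1 rose in cKO by 1.26 ± 0.29. H2-Ab1, H2-Aa and H2-Eb1 read 50, the floor, in every E15.5 library, and H2-DMb1 in every cKO library at E15.5. Only an upward difference could be seen there, and the floor limits the size of these changes.

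Of the 96 genes tested in these 6 pathway lists, limma called 0 for genotype at either age and 0 for the interaction. An unadjusted p under 0.05 was reached by 0 at E15.5, 4 at P5 and 0 for the interaction. Among all 13523 genes it was reached by 49 at E15.5, 1039 (7.68%) at P5 and 358 for the interaction. The largest values at P5 that were not called included Cd74 at 0.69 ± 0.34, Ifi30 at 0.60 ± 0.24, Rsad2 at -0.57 ± 0.36 and Irf5 at -0.53 ± 0.19 (cKO minus WT, log2, SE). The age calls of the named pathway genes, picked because they were called without a marker term, were recomputed with these terms. Of 23 in WT and 24 in cKO, 0 and 5 were still called higher with the endothelial term. This compares with 18.4% and 19.8% of all genes. With the RPE term 0 and 0 were called higher, against 1.63% and 0.444% of all genes. Tlr3 was called lower in both with the endothelial term, and values were negative for 12 and 7 genes with that term and for 20 and 16 with the RPE term.

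**Figure D4:**
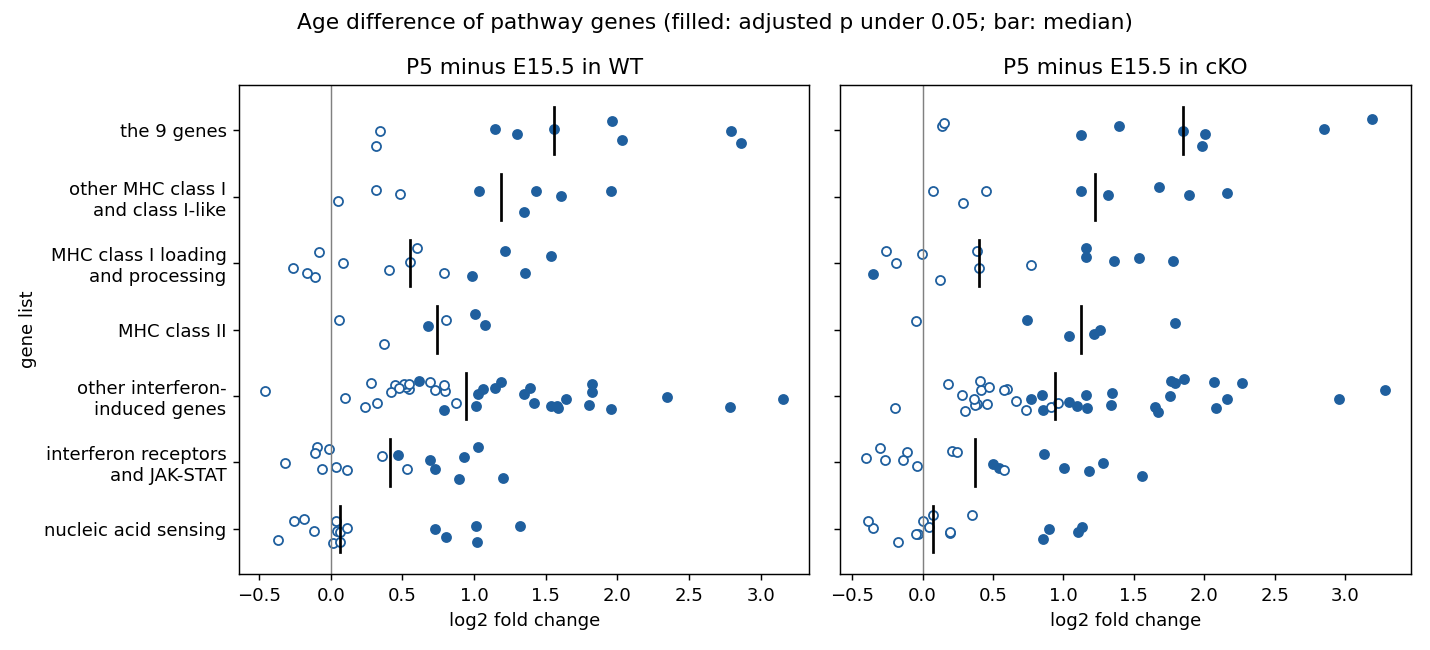
Log2 fold change of each gene of the pathway lists with age in WT and in cKO; filled points are called at an adjusted p under 0.05. The called points lie almost all above 0, with Canx in cKO the exception.

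Over the 12 libraries, the genes outside the set whose log2 values followed the mean of the 9 most closely were Slc24a1 (Pearson r = 0.9955), Spns2 (0.9948), Me1 (0.9937), Slc6a13 (0.9927) and Xaf1 (0.9911). Over the 6 P5 libraries alone r was 0.968, 0.99, 0.96, 0.953 and 0.912 in the same order. Slc24a1 is a sodium-calcium-potassium exchanger, Spns2 a sphingosine-1-phosphate exporter, Me1 malic enzyme and Slc6a13 a transporter of GABA and taurine. Spns2 read 1083.4, 1009.5 and 539.9 in WT and 869.3, 875.5 and 960.3 in cKO at P5, with the same low library as the 9 genes. These coefficients describe libraries that share their ages and marker levels, and carry no test.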

How the data were processed

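Each gene of the deposited table has a signal value in every library. Its name records what the authors did: gene counts were quantile-normalised and a floor of 50 was applied. All 12 columns hold the same sorted values, so depth and counting error are unknown. Alignment with TopHat2 2.0.10 to mm10 and counting with HTSeq are recorded per the submitters' processing notes, without annotation release or strand setting. Column titles assigned the libraries to groups.

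A gene was tested when at least 3 of the 12 libraries exceeded the floor, which held for 13523 of 13942. A model with 1 mean per group was fitted to log2(value + 1) with limma 3.58.1 in R 4.3.3 (eBayes with trend, two-sided) and p-values were adjusted over all genes tested by the Benjamini-Hochberg method. Fold changes are on that log2 scale and understate changes of genes near the floor. Exact permutation tests were two-sided. The model was tested on simulated data. Gene positions are from GENCODE M21 (GRCm38), promoters from RefSeq (GRCm38.p6).

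The 9 genes, the pathway and marker lists and the tests were chosen with earlier results of these data known. Named genes are the 9, up to 4 called genes per list and contrast by size of change, the 2 largest as values where none was called, and the 5 genes most like the mean of the 9. Of the values that were not called, the text prints a part, chosen after they were seen. Values in the other genotype for Ifngr1, Irf2, Irgm1, Gbp7 and Psmb8, and the age value of Irf5, were added in the same way. They are outside the counts of named genes. A further named gene is not reported here. Alternatives changed the pseudocount, filter, scaling, weights, libraries, replicate block and marker terms. Replicate numbers do not pair the libraries.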

Additional observations from a re-analysis of the deposited data

How the results depend on the processing

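The genotype and interaction calls stayed at 0 of the genes tested (7 with the stricter filter, otherwise 9) under all alternatives but one. The age calls stayed at 5 to 9 in WT and 7 or 8 in cKO except under the endothelial and RPE terms. With those terms apart, 1405 to 4199 of all genes tested were called higher with age in WT and 1763 to 3540 in cKO. Library weights, whose estimation stopped before convergence, turned genotype values to -0.077 for H2-K1 at E15.5 and, at P5, to -0.23 for Ifit3, -0.27 for Ifitm3 and -0.29 for B2m. A macrophage term turned H2-D1 at P5 to 0.028. The endothelial term left 2 age calls in WT and 4 in cKO, turned Ifit3 with age in WT to -0.068 and Isg15 to -0.17 in WT and -0.25 in cKO, and turned cKO minus WT at P5 to 0.27 for Bst2, 0.10 for Irf7 and 0.21 for H2-D1. With the RPE term 1 age call (Ifit3, lower) was made in WT and 0 in cKO, and 3 genotype calls at P5. Its age values in WT were -0.71 for Bst2, -0.55 for Ifit1, -2.17 for Ifit3, -0.47 for Isg15, -1.31 for Irf7 and -0.55 for B2m, and in cKO -0.66 for Bst2, -0.73 for Ifit1, -1.80 for Ifit3, -0.61 for Isg15, -1.39 for Irf7 and -0.18 for B2m. Its genotype values were 0.33 for B2m and 0.22 for H2-D1 at E15.5, and at P5 0.57 for Bst2, 0.012 for Ifit1, 0.026 for Isg15, 0.46 for Irf7 and 0.33 for H2-D1. The cause of these turns was not tested.

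Leaving out each library in turn, cKO minus WT ranged from -0.063 to 0.18 for H2-K1 at E15.5. At P5 it ranged from -0.58 to 0.19 for Bst2, -0.38 to -0.11 for Ifit1, 0.015 to 0.63 for H2-K1, -0.22 to 0.59 for Ifit3, -0.28 to 0.26 for Ifitm3, -0.66 to 0.12 for Irf7, -0.12 to 0.42 for B2m and -0.29 to 0.13 for H2-D1, and the interaction of H2-K1 from -0.050 to 0.57. Age calls were 6 to 9 in WT and 7 in cKO, Ifit3 in WT being lost in 5 of these fits. Among all 13523 genes, 1405 to 2752 were called higher with age in WT and 1763 to 3065 in cKO. Where 1 library was left out, no group fell below 2.

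With the replicate number as a replicate block, 7 genes were called with age in WT, 7 in cKO and 0 for genotype. Among all 13523 genes, 2004 were called higher with age in WT and 2375 in cKO. For genotype, 1 of all genes was called lower at E15.5, and 16 were called higher and 2 lower at P5. Deviations of same-numbered libraries correlated at -0.019, 0.274 and -0.022 at E15.5 and 0.783, -0.297 and 0.185 at P5, so the numbers were not taken as pairs. Sequencing depth is unknown, so no counting error bounds the low values of Isg15, Ifit1 and Irf7. The endothelial and RPE terms were added after the data were seen.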
